A study of Mus musculus with 2 samples.

Results

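The cells described here are hepatic stellate cells (HSCs) that carried little endothelial RNA, taken from single-cell RNA-seq of liver non-parenchymal cells (NPCs). A cell was a member if Lrat and Reln together made up at least 8 of every 10000 of its UMIs (unique molecular identifiers, each standing for 1 captured transcript) and if 4 other sums stayed low. The endothelial genes Ptprb, Clec4g, Dnase1l3 and Fcgr2b had to be under 10 per 10000, as had Lyz2, Cd5l and Cd79a of macrophages and B cells. The mesothelial genes Msln and Upk3b were limited to 2 UMIs and the cell cycle genes Mki67 and Top2a to 4 UMIs. This gave 176 members among 13603 filtered cells (14567 deposited): 38 of 7471 in the normal library, which is 0.509% (exact binomial 95% interval 0.360 to 0.698), and 138 of 6132 in the fibrosis library, which is 2.25% (1.89 to 2.65). The members were thus selected on these UMI sums, so the shares and the levels of these genes are descriptions.

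Each library came from the liver of 1 male C57BL/6 mouse with no transgene named. Injections began at 8 weeks of age and were given 2 times a week over 6 weeks, into the peritoneum. The normal mouse received olive oil and the fibrosis mouse received CCl4, a solvent that injures hepatocytes, at 15% in the oil. The fibrosis mouse received 0.6 µl of that mixture per g of body weight, and its cells were collected 48 h after the last dose. Both livers were digested with collagenase and hepatocytes were spun out at low speed. With 1 mouse a group no test between groups was possible, mouse, library and treatment cannot be told apart, and all intervals cover counting error only.

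HSCs lie between the sinusoidal endothelium and the hepatocytes. In the healthy liver they store vitamin A as retinyl esters in lipid droplets, which Lrat makes, and secrete factors such as Hgf and lectins such as Colec11. After injury they can lose these droplets, gain contractile proteins such as α-smooth muscle actin (Acta2) and lay down fibrillar collagen. The comparison of normal with CCl4 members asks which of these gene groups differed in level between the 2 livers.

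The stellate label did not hold for all members. Of the 38 normal members, 6 had no Lrat UMI and entered the set through 6 to 26 Reln UMIs each. These 6 cells held 50 to 369 UMIs each of Ccl21a, Mmrn1 and Prox1, which are genes of lymphatic endothelium, whereas no other member of either library held more than 1. They had 0 UMIs of Colec11, Ecm1, Hgf and Angptl6, the other stellate markers, and 3 of Dcn. They supplied 16.8% of the normal members' UMIs and 99.4% of their Lyve1. In fibrosis, 13 members entered on fewer than 4 UMIs of Lrat and Reln. Their depth was low (median 1155 UMIs), they showed no Ecm1, and haemoglobin Hba-a1 stood at 72.7 UMIs per 10000 in them, but they supplied only 0.931% of the fibrosis members' UMIs. Dcn stood at 22.8, Col1a1 at 28.2 and Colec11 at 1.80 in these 13, and 1 of them had Col1a1 at 223 and Acta2 at 20.2. Without both sets, 32 normal and 125 fibrosis members were left, and each of these held a UMI of Colec11, Ecm1, Hgf or Angptl6. At their median depth of 7408 and 13062 UMIs, 1 such UMI is a low bar. Lymphoid cells of the 2 libraries also held 2.20 and 8.80 UMIs per 10000 of 27 HSC genes. The check thus does not show that each cell left is an HSC. These 157 cells are called the marker-checked members, and their values are given beside those of all members for each gene group and for genes whose ratio differed much between the 2 sets. The check was made after values had been seen.

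**Figure D1:**
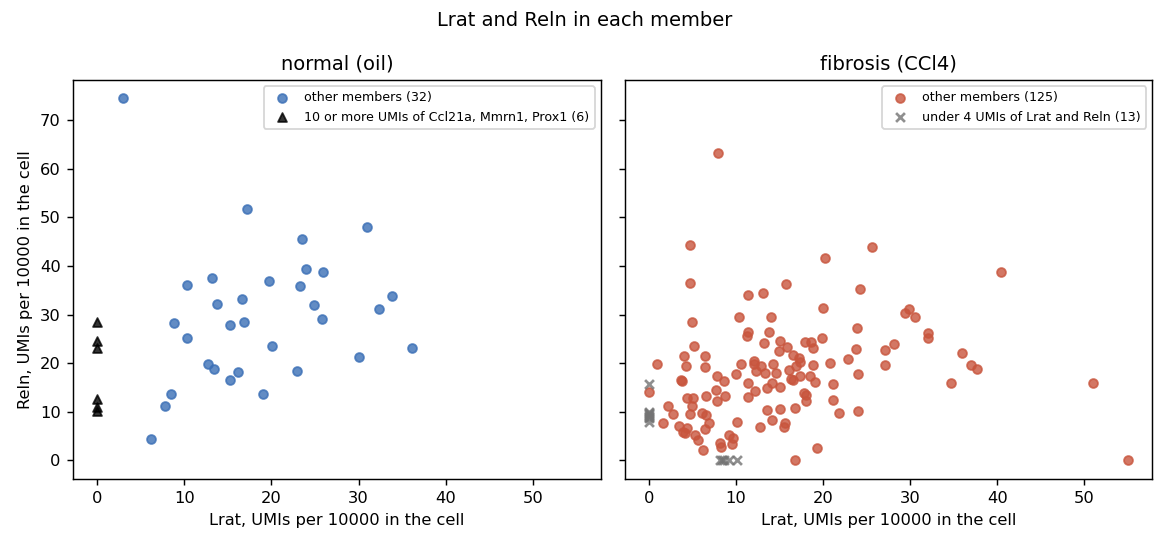
Lrat (x axis) and Reln (y axis) in UMIs per 10000 UMIs of the cell, 1 point per member, for the normal (left) and the fibrosis library (right). The 6 triangles on the left sit at 0 Lrat and are the cells with lymphatic endothelial genes, and the 13 crosses on the right are members with fewer than 4 UMIs of Lrat and Reln.

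Cells just inside and outside the limits lay close together. The lowest normal member had 10.2 UMIs of Lrat and Reln per 10000 and the lowest fibrosis member 8, against 7.92 and 7.97 in the highest cells outside. The median member had 44.5 in normal and 30.3 in fibrosis. At the endothelial limit, the highest members had 9.86 and 9.94 per 10000 and the lowest cells outside 10.1 and 10.0. Among Lrat and Reln cells that met every other limit, 62 normal and 136 fibrosis cells failed the endothelial limit, which is 62.0% (51.7 to 71.5) and 49.6% (43.6 to 55.7).

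Depth differed between the libraries. Normal members held 321939 UMIs in all (3356 to 23871 per cell, median 6737) and fibrosis members 1787897 (1006 to 83013, median 11772). The median mitochondrial share was 5.87% and 5.32%. The libraries shared 15 cell barcodes, and 0 members carried one of them. Lymphoid cells, which should lack stellate transcripts, were used to read free RNA (1287 normal and 568 fibrosis cells). Free hepatocyte RNA was higher in normal. Alb, the albumin gene, stood at 95.5 UMIs per 10000 in normal and 11.7 in fibrosis lymphoid cells, and at 42.8 and 3.88 in members. The lymphoid level can thus overstate free RNA in members, and lymphoid cells can also express a gene themselves. A level at or under the lymphoid one, or at 0 after its subtraction, therefore does not show that a gene came from free RNA.

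Across genes the members of the 2 livers differed in both directions. Levels are UMIs of a gene per 10000 UMIs summed over the cells of a group, and ratios are fibrosis over normal. Of 4459 genes with a level of at least 0.5 in either group, 410 (9.19%) were at least 2 times higher in fibrosis and 393 (8.81%) at least 2 times lower, with a median ratio of 1.01. In marker-checked members, 437 of 4409 (9.91%) were higher and 379 (8.6%) lower, with a median of 1.03. Every count for a gene group below can be read against these shares.

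**Figure D2:**
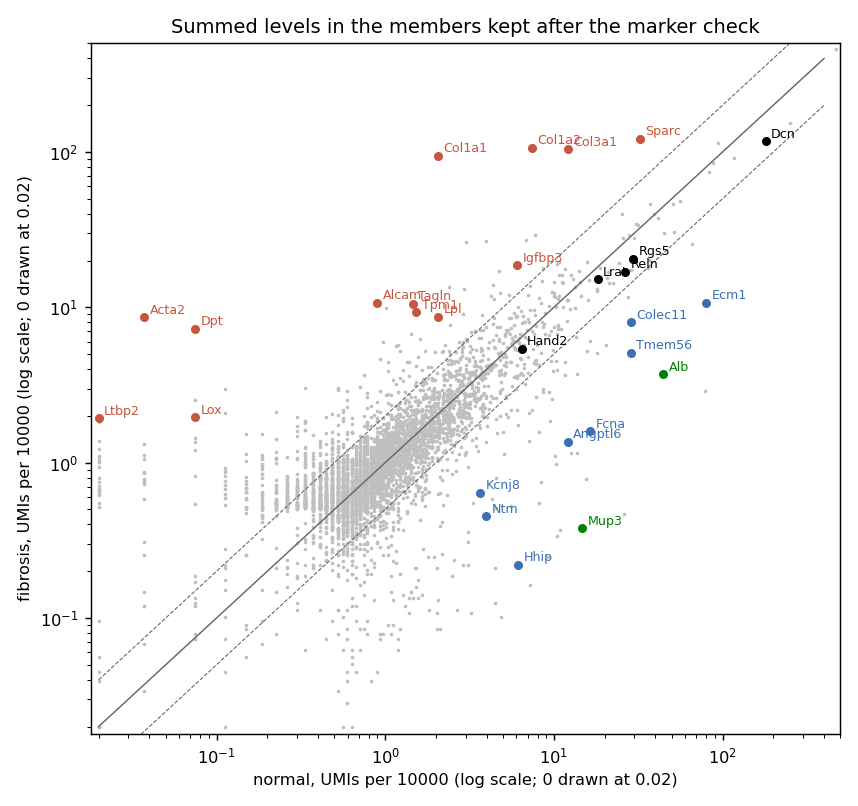
Level of each gene in the 32 normal (x axis) and 125 fibrosis (y axis) marker-checked members, in UMIs per 10000 on log axes with 0 drawn at 0.02, with solid and dashed lines at ratios of 1 and of 2 and 0.5. Col1a1, Acta2 and Dpt lie far above the lines, Ecm1, Angptl6 and Hhip far below, and Lrat, Reln, Dcn and Hand2 between the dashed lines, while Alb and Mup3 (green) are hepatocyte genes.

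Genes that mark HSCs in the healthy liver were mostly lower in CCl4 members. Of 27 such genes, 25 were over the limit of 0.5, and 9 of these were at least 2 times lower and 1 higher, with a median ratio of 0.598. In marker-checked members 12 were lower and 1 higher, with a median of 0.502. Ecm1 (extracellular matrix protein 1; chr3:95734147-95739569 in GRCm38) stood at 66.5 (95% Poisson interval 63.7 to 69.4) in normal and 10.6 (10.2 to 11.1) in fibrosis. This was a ratio of 0.160 (0.150 to 0.170). The cells barely overlapped, since 114 of 125 marker-checked fibrosis members lay below the lowest of the 32 normal cells.

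The collectins, secreted lectins of innate immunity, were lower as well. Colec11 (chr12:28594173-28623377) stood at 23.8 in normal and 7.94 in fibrosis, a ratio of 0.334 (0.306 to 0.365), and Colec10 had a ratio of 0.377. The ficolin gene Fcna had a ratio of 0.115 (0.0989 to 0.134). Angptl6, an angiopoietin-like growth factor, stood at 10.1 and 1.35, a ratio of 0.134 (0.113 to 0.159). Hhip, which binds and restrains hedgehog ligands, had the smallest ratio of the group at 0.0426 (0.0292 to 0.0607), with 165 UMIs in the 38 normal members and 39 in the 138 fibrosis members. Tmem56 had a ratio of 0.213. The receptors for vasoactive intestinal peptide (Vipr1) and parathyroid hormone (Pth1r) had ratios of 0.395 and 0.408.

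Other HSC genes lay closer to even, with few past 2-fold. Lrat stood at 15.16 in normal and 15.01 in fibrosis, and Reln at 24.8 and 16.9, but both had been used to choose the cells. The normal sums include the 6 lymphatic cells, which held 16.8% of the UMIs and no Lrat, and so lower the normal level of genes they lack. Of the 125 marker-checked fibrosis members, 42 lay above the median of the normal ones for Lrat and 16 for Reln. Hand2 (ratio 0.999, 0.849 to 1.18), Zeb2 (0.971) and Tcf21 (1.17) are transcription factor genes of HSCs. The pericyte gene Rgs5 had a ratio of 0.831, desmin (Des) 1.38 and cytoglobin (Cygb) 1.44. Hgf, the hepatocyte growth factor gene, had a ratio of 0.568 (0.504 to 0.641) in all members and 0.477 in marker-checked ones, where it passed the 2-fold line. The same held for Bmp5 (0.563 and 0.472). Pcdh7, a protocadherin, was the gene of this group that was at least 2 times higher (2.65, 1.72 to 4.29).

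Genes of vitamin A and lipid handling had no shared direction. Of 26 genes, 13 were over the limit, 2 of these were at least 2 times higher and 1 lower, and the median ratio was 1.11. In marker-checked members 4 were higher, 2 lower and the median 1.02. Plin2, which coats lipid droplets, had a ratio of 1.11 (0.827 to 1.51). Lpl (lipoprotein lipase) was 4.76 times higher (3.67 to 6.28), with levels of 1.83 and 8.72, and the fatty acid transporter Cd36 3.31 times higher (4.82 in marker-checked members). In lymphoid cells Lpl stood at 0.242 in normal and 3.20 in fibrosis, and Cd36 at 0.443 and 3.69. Cd36 was thus below the lymphoid level in both groups. Rbp4, the plasma retinol carrier, had a ratio of 0.0513, and its lymphoid levels of 8.71 and 0.898 were above those in members (4.25 and 0.218).

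Fibril-forming collagens were higher in CCl4 members. Of 11 genes of fibril-forming and associated collagens, 9 were over the limit, 8 of these were at least 2 times higher in fibrosis and 0 lower, and the median ratio was 10.97. The summed level of the group was 44.9 in normal and 357 in fibrosis members, and 0.279 and 10.2 in lymphoid cells. In marker-checked members 7 were higher and the median was 9.33, with Col16a1 at 1.88.

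Col1a1 (chr11:94936224-94953042), the α1 chain of type I collagen, stood at 1.71 (1.29 to 2.22) in normal and 93.6 (92.2 to 95.04) in fibrosis, a ratio of 54.8 (42.1 to 72.8). A single normal cell held 36.4% of the normal members' 55 Col1a1 UMIs. The Col1a1 ratio was 114 at an endothelial limit of 5 per 10000 and 99.6 without the 3 cells of each group that held most of it. Its partner Col1a2 stood at 6.18 and 106 (ratio 17.1, 14.9 to 19.8), and Col3a1 at 10.1 and 103 (10.2, 9.17 to 11.5). Normal members thus held far more Col3a1 and Col1a2 than Col1a1 UMIs, whereas in fibrosis the 3 counts were alike (18478, 18931 and 16736). Col5a2, a regulator of fibril width, had a ratio of 10.97 and Col5a1 3.36. Col8a1 had 1 UMI in normal and 233 in fibrosis (ratio 42.0, 7.46 to 1664), and Col12a1 had 0 and 185, which is at least 11.1-fold higher when 3 counts over the group are set as the floor. Col14a1, by contrast, stood at 21.3 and 27.8 (1.31, 1.20 to 1.42).

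Basement membrane and type VI collagen genes were higher in part. Of 20 genes, 19 were over the limit, 10 were at least 2 times higher and 2 lower, with a median ratio of 2.25. The chains Col4a1 (3.88, 3.41 to 4.44) and Col4a2 (4.87) of type IV collagen and Col6a3 (10.4, 8.32 to 13.1) of type VI were among the higher ones. Laminin Lamc1 had a ratio of 2.25, Lamb1 of 1.09 and Lama1 of 0.706. Col15a1 had 2 UMIs in normal and 189 in fibrosis (17.0, 4.65 to 142; 28.4 in marker-checked members and 8.82 with Lrat and Reln at 16 or more). Of the lower genes, Col18a1 (0.134) and Lama4 (0.209), the 6 cells with lymphatic genes held 82.9% and 89.5% of the normal UMIs. In marker-checked members their ratios were 0.656 and 1.66, 10 genes were higher and 0 lower, and the median was 2.48.

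Proteoglycan, elastic fibre and matricellular genes were split. Of 36 genes, 30 were over the limit, 16 were at least 2 times higher and 1 lower, with a median ratio of 2.08 (16, 1 and 2.31 in marker-checked members). Dpt (chr1:164796644-164824266) encodes dermatopontin, a small matrix protein that binds decorin. It had 2 UMIs in normal and 1295 in fibrosis, levels of 0.0621 (0.00752 to 0.224) and 7.24 (6.85 to 7.65) and a ratio of 117 (32.2 to 964). Ltbp2 and Mfap4, of elastic fibres, and the large proteoglycan Vcan had 0 UMIs in normal members and were at least 20.5-fold, 8.46-fold and 5.58-fold higher. Sparc, a collagen-binding matricellular protein, stood at 27.1 and 120 (4.44, 4.15 to 4.76), fibronectin (Fn1) at 4.32 and 12.2 (2.83) and elastin (Eln) at 0.683 and 3.00 (4.39). The small leucine-rich proteoglycans that bind collagen did not move together, with ratios of 0.775 (0.751 to 0.800) for Dcn, 1.20 for Bgn, 2.15 for Lum and 5.80 for Ogn. For Dcn, 21 of the 125 marker-checked fibrosis members lay above the median of the normal ones. Efemp1 was the lower gene (0.379, 0.307 to 0.470). Thbs1, thrombospondin 1, had a ratio of 1.47 in all members and 5.69 in marker-checked members, as 78.3% of its normal UMIs lay in the lymphatic cells.

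Genes that fold, trim and crosslink collagen were higher as well. Of 22 genes, 18 were over the limit, 12 were at least 2 times higher and 0 lower, with a median ratio of 2.81 (11, 0 and 2.43 in marker-checked members). The lysyl oxidases, which crosslink collagen and elastin, had ratios of 31.3 (8.61 to 260) for Lox, from 2 UMIs in normal, 6.69 for Loxl1 and 6.35 for Loxl2. Loxl3 was at 1.78. The collagen chaperones Serpinh1 (4.49, 3.89 to 5.21) and Fkbp10 (6.08) and the procollagen protease Adamts2 (5.67) were higher too. The lysyl hydroxylases were at 1.52 (Plod1), 3.19 (Plod2) and 1.32 (Plod3).

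Proteases of the matrix and their inhibitors were mostly higher. Of 22 genes, 16 were over the limit, 12 were at least 2 times higher and 0 lower, with a median ratio of 2.88 (12, 0 and 3.23 in marker-checked members). Mmp23 had a ratio of 7.81 (18.6 without the 3 cells of each group that held most of it), the gelatinase Mmp2 3.91 and the membrane protease Mmp14 2.70. The protease Adamts1 went the other way (0.735, and 0.388 with the lymphoid level subtracted). Of the inhibitors, Timp1 had 3 UMIs in normal and 160 in fibrosis (9.60, 3.23 to 47.1), and Timp2 had a ratio of 2.05. Timp3 had a ratio of 0.807 in all members and 4.76 in marker-checked ones, since 85.8% of its normal UMIs lay in the 6 lymphatic cells.

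Contractile and cytoskeletal genes were higher in part. Of 26 genes, 22 were over the limit, 11 were at least 2 times higher and 0 lower, with a median ratio of 1.91 (11, 0 and 2.04 in marker-checked members). Acta2 (chr19:34241090-34255590, minus strand) had 1 UMI in the 38 normal members and 1531 in the 138 fibrosis members. Its levels were 0.0311 (0.000786 to 0.173) and 8.56 (8.14 to 9.003), a ratio of 276 (49.4 to 10896), against 0.426 in fibrosis lymphoid cells. Transgelin (Tagln), an actin-binding protein of smooth muscle, stood at 1.21 and 10.4 (8.61, 6.27 to 12.1). A single normal cell held 43.6% of the 39 normal Tagln UMIs, and the Tagln ratio was 17.3 at an endothelial limit of 5 and 17.9 without the 3 cells of each group that held most of it. Ratios were 6.62 for tropomyosin Tpm1, 4.73 for the smooth muscle myosin Myh11, 3.02 for the myosin light chain Myl9 and 2.46 for its kinase Mylk. The non-muscle myosin Myh10 was higher too (5.42, 2.99 to 10.96). By contrast, β-actin (Actb) was at 1.32, calponin Cnn3 at 0.871 and smoothelin (Smtn) at 0.853.

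Many smooth muscle promoters carry a CArG box, the site of serum response factor, so the promoters of the contractile group were searched for it. RefSeq promoters (GRCm38.p6, 250 bases before to 50 after the start) were found for 22 of the 26 genes, 24 promoters in all. An exact CArG box was present in 4 of the 24 (16.7%), against 1.63% of all 32851 promoters. With 1 letter off allowed it was present in 9 (37.5%), against 21.1%. The strand does not matter for a site that reads alike on both. The promoters of Acta2, the gene with the largest ratio of the group, and of Myl9 are shown, with capitals marking boxes with at most 1 letter off in Acta2 and the exact box in Myl9. The Myl9 stretch also holds ccttgtaagg, which is 1 letter off and was left in small letters. Starts are counted from the first base of the RefSeq transcript used, so that the boxes begin 84 and 34 bases before it in Acta2 and 161 bases before it in Myl9. For Acta2 this start lies inside the gene span given above, which begins at 34255590 on the minus strand. Counted from there, the distances would differ. A match is a description of the letters and not of binding.
Acta2, chr19:34255324-34255623, minus strand: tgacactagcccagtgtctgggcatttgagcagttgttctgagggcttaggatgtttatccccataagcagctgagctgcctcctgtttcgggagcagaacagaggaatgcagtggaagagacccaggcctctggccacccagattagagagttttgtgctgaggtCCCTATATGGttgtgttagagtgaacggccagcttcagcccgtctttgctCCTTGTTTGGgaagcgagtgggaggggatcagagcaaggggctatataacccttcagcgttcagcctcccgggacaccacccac
Myl9, chr2:156775214-156775513, plus strand: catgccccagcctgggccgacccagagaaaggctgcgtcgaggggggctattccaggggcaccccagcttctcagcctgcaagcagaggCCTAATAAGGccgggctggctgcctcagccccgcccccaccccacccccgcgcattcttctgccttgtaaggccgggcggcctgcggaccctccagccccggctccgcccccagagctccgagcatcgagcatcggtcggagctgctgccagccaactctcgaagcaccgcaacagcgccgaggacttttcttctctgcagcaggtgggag

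**Figure D3:**
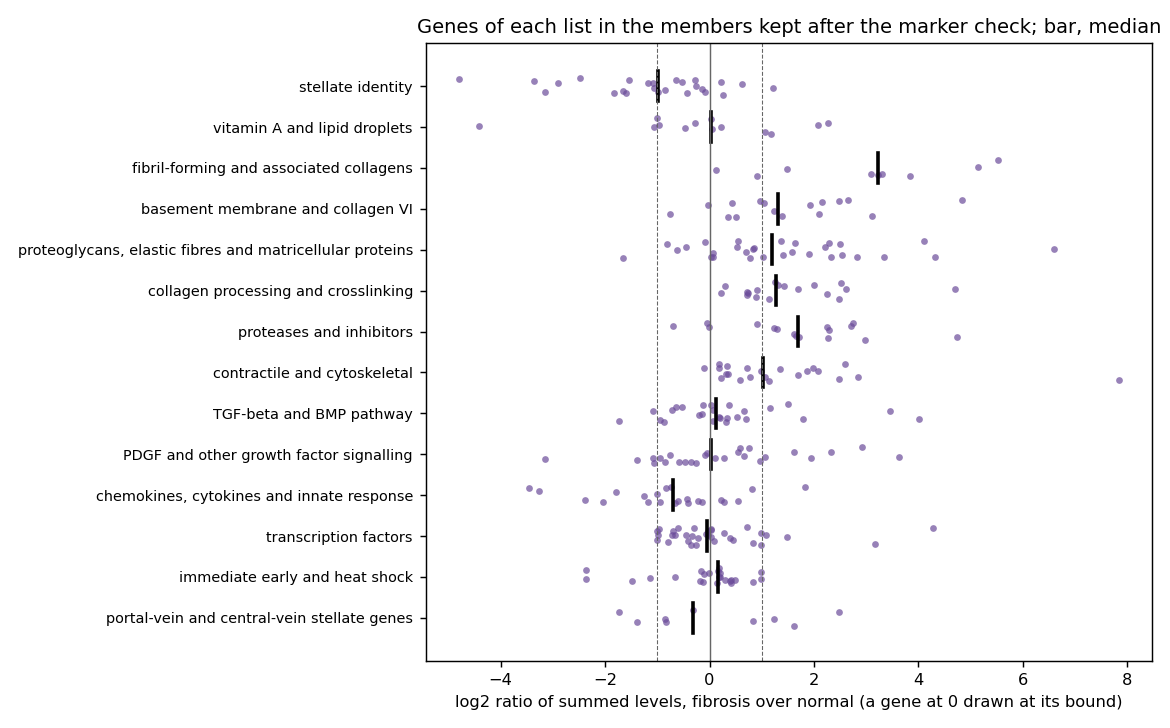
Log2 ratio of summed levels, fibrosis over normal, in marker-checked members (x axis), with 1 point per gene over the limit of 0.5 UMIs per 10000 and a bar at the median of each gene group; dashed lines mark 2-fold. The collagen group has its median ratio at 9.33 and stellate identity at 0.502, while transcription factors centre near 1 (0.966).

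The TGF-β and BMP pathway, which drives matrix production, had members in both directions. Of 35 genes, 25 were over the limit, 4 were at least 2 times higher and 3 lower, with a median ratio of 1.08 (5, 2 and 1.09 in marker-checked members). Among ligands, Bmp10 (0.358, 0.273 to 0.472) was lower and Tgfb2 (3.85, 2.06 to 8.15, and 16.1 in marker-checked members) higher, while Tgfb1 was at 0.808 (0.568 to 1.18) and Gdf2, which encodes BMP9, at 0.765. Among receptors and integrins, Tgfbr1 (2.66, 1.41 to 5.67) and Itgb5 (3.39), a subunit of an integrin that frees TGF-β, were higher and endoglin (Eng) was at 0.545. Tgfbr2 was at 0.456 in all members and at 1.15 in marker-checked members. The target genes Id1, Id2 and Id3 had ratios of 3.00, 1.83 and 1.31 (11.04, 1.62 and 1.26 in marker-checked members), and Id1 in fibrosis lymphoid cells stood at 1.22, above its level in members (0.839).

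Growth factor genes were likewise mixed. Of 41 genes, 27 were over the limit, 7 were at least 2 times higher and 3 lower, with a median ratio of 1.15 (6, 4 and 1.02 in marker-checked members). The platelet-derived growth factor receptors had ratios of 1.79 (1.40 to 2.32) for Pdgfra and 1.74 (1.44 to 2.12) for Pdgfrb, both under 2-fold. Vegfd, a ligand of lymphatic growth, had 0 UMIs in normal and 244 in fibrosis members (at least 14.7-fold higher), and Wnt5a had 4 and 200 (9.003, 3.46 to 33.4). Igf1 was at 4.05 and its binding protein Igfbp3 at 3.61 (3.08 to 4.24). On the lower side were Angptl6, given above, and Rspo3 (0.452, 0.396 to 0.517), a Wnt enhancer that sets metabolic zones in hepatocytes. Igfbp5 (0.0244) was the other lower gene, and all 81 of its normal UMIs lay in the 6 lymphatic cells.

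Chemokine and innate response genes were more often lower. Of 33 genes, 22 were over the limit, 1 was at least 2 times higher and 7 lower, with a median ratio of 0.731 (1, 8 and 0.614 in marker-checked members). Several of the lower ones came from few cells. A single normal cell of 17904 UMIs held 313 of the 340 Ccl2 UMIs, 170 of the 200 of Cxcl10 and 98 of the 132 of Cxcl9, all of them chemokines that draw monocytes or T cells. Without it, Ccl2 stood at 0.888 in normal members, against 0.801 in fibrosis members without their own top cell. For Cxcl10 the direction turned, from a ratio of 0.347 to levels of 0.987 in normal and 1.44 in fibrosis without the top cell of each. Ifit3, an interferon target, was spread over more cells and had a ratio of 0.230 (0.161 to 0.330). Cxcl12, which retains leukocytes and stem cells, was at 0.712 (0.671 to 0.756), the complement gene C3 at 0.398 and the MHC class I gene H2-D1 at 0.545. Osmr, the oncostatin M receptor, was the higher gene (2.43, 1.41 to 4.53). Lcn2 (0.0284) was at 0.403 in marker-checked members, as 94.7% of its normal UMIs lay in the lymphatic cells.

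Transcription factor genes were near even as a group. Of 44 genes, 33 were over the limit, 5 were at least 2 times higher and 0 lower, with a median ratio of 0.971 (4, 1 and 0.966 in marker-checked members). The mesenchymal homeobox gene Prrx1 had 0 UMIs in normal and 178 in fibrosis (at least 10.7-fold higher), and Wt1 had 1 and 129 (23.2, 4.10 to 924; 11.3 with Lrat and Reln at 16 or more). Snai2 (3.32) and Snai1 (2.18), linked to epithelial-to-mesenchymal change, and the orphan receptor Nr4a1 (2.47) were the other higher genes, of which Snai1 and Nr4a1 were at 1.99 in marker-checked members. Lhx2, a homeobox gene that keeps HSCs quiescent in mice, was at 0.598 (0.4999 to 0.718).

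Genes that respond to tissue handling gave a check on dissociation. Of 24 immediate early and heat shock genes, all 24 were over the limit, 2 were at least 2 times higher and 3 lower, with a median ratio of 1.18 (0, 4 and 1.12 in marker-checked members). Fos (1.03), Jun (1.01) and Egr1 (1.64) were under 2-fold. The heat shock genes Hspa1a (0.231) and Hspa1b (0.224) were lower, and in lymphoid cells Hspa1a also stood lower in fibrosis (0.589) than in normal (4.80). With the lymphoid level subtracted the Hspa1a ratio was 0.492.

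HSCs near the portal vein and near the central vein differ in known genes. Of 10 such genes 9 were over the limit, 3 were at least 2 times higher and 2 lower, with a median ratio of 0.954 (3, 2 and 0.802 in marker-checked members). Of genes of the portal side, the integrin Itgb3 was at least 2 times lower (0.339) and Loxl1 (6.69) and Igfbp3 (3.61) were higher, while Ngfr (0.663) and Il34 (0.664) lay between. Of genes of the central side, Rspo3 was lower (0.452) and Adamtsl2 higher (2.82, 2.16 to 3.74). Genes of both sides were thus found in both directions.

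Across all genes, groups included, a fixed rule took the 12 largest and 12 smallest ratios among 399 genes. These had a level of at least 1 in either group, a ratio at least 2-fold from that in lymphoid cells and no single cell that dominated. In the higher group they stood at least 2 times above the lymphoid cells of that library. Mitochondrial, ribosomal-protein, haemoglobin and immunoglobulin genes were left out. The genes taken by this rule and not yet described follow. Alcam, a cell adhesion molecule, stood at 0.808 and 10.6 (13.1, 8.93 to 20.1). Fam180a had 1 and 323 UMIs, Nrep 1 and 197, Fhl2 2 and 239, and Svep1 0 and 198 (at least 11.9-fold higher). With so few normal UMIs their ratios are wide, as for Fam180a (58.2, 10.4 to 2304). At the low end were Ntm (0.136, 0.1004 to 0.183), a neural adhesion protein, Jade2 (0.170), the potassium channel subunit Kcnj8 (0.203, 0.154 to 0.269), Apold1 (0.230) and Abi3bp (0.313). Flt4, a receptor of lymphatic and sinusoidal endothelium, also met the rule (0.208), but stood at 1.36 in marker-checked members.

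Levels varied widely from cell to cell in fibrosis. Among the 125 marker-checked fibrosis members, Col1a1 ran from 0 through a median of 49.0 to 321 per 10000, and 92 of them (73.6%) lay above the highest of the 32 normal cells (14.6). For Col1a2 107 and for Col3a1 95 of the 125 lay above the highest normal cell. Acta2 had a median of 1.87 and a highest cell at 87.5, and 86 of the 125 cells lay above the normal median of 0. Dpt had a median of 2.55 and Tagln of 5.34. On the lower side, 85 cells lay below the lowest normal cell for Colec11, 89 for Angptl6 and 76 for Tmem56.

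**Figure D4:**
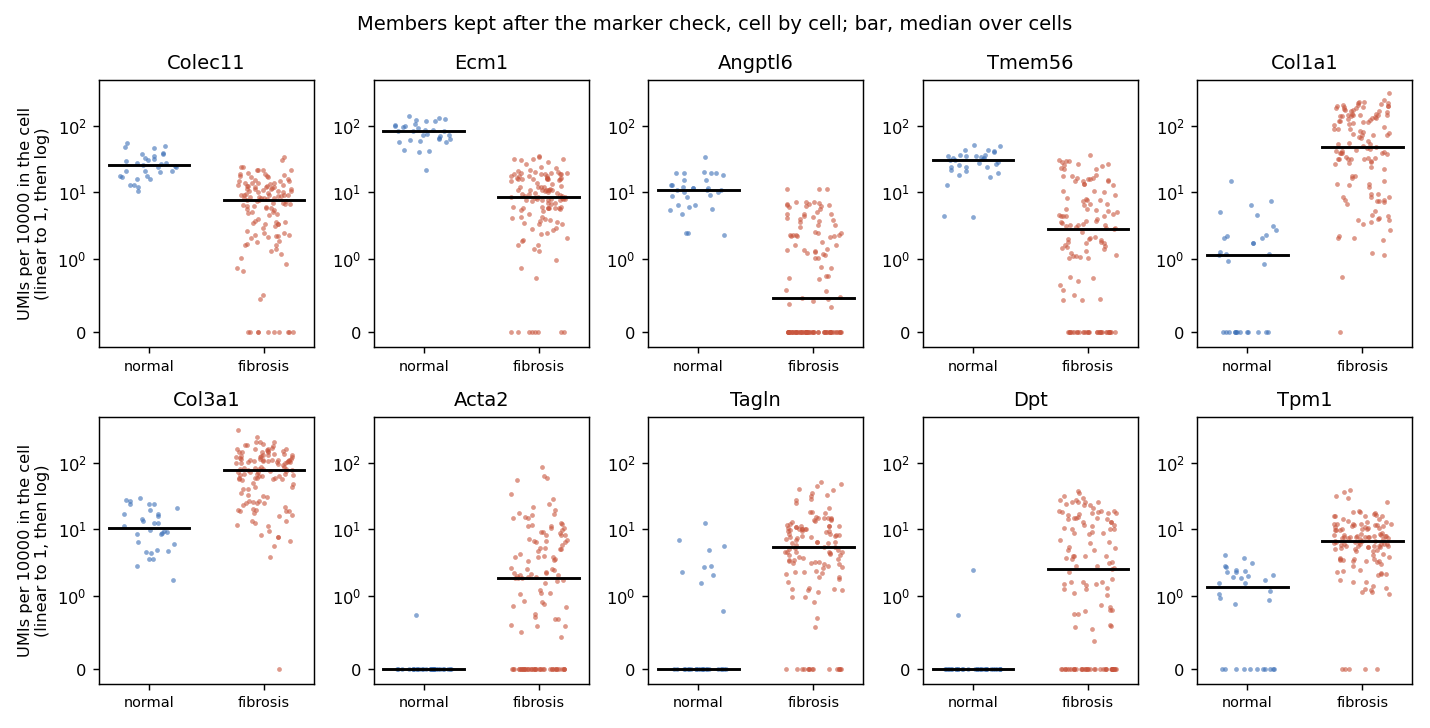
UMIs per 10000 of the cell for 10 genes (y axis, linear to 1 and logarithmic above), 1 point per marker-checked member in the normal and the fibrosis library, with a bar at the median. Ecm1 separates the libraries with little overlap, and Acta2 and Dpt run from 0 to 87.5 and to 38.1 in fibrosis while normal cells sit at or near 0.

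Shares of cells with a UMI were compared after each cell had been thinned to 1000 UMIs, which left out 0 members. Because 1 random draw moved the shares of scarce genes, the share expected over all draws is given as well. Acta2 was found in 0 of 38 normal members, which allows a share of up to 7.89% of cells with a UMI at that depth when 3 counts are taken as the limit (0.192% expected over draws). In fibrosis it was found in 39 of 138 members (28.3%, 20.9 to 36.5; 26.8% expected). In lymphoid cells Acta2 was found in 0 of 1285 and in 30 of 560 (5.36%; 4.85% expected), so the fibrosis share was above the free RNA level. Before thinning, 1 of 38 and 87 of 138 members held it. For Col1a1 the expected shares were 13.3% of normal and 78.5% of fibrosis members, where the draw gave 5.26% and 77.5%, and 0.328% and 21.7% of lymphoid cells. Angptl6 went the other way, with 55.2% of normal and 13.0% of fibrosis members expected (52.6% and 8.70% in the draw) and 0.649% and 1.27% of lymphoid cells. Lymphoid cells were shallower (median 3333 UMIs in normal and 2504 in fibrosis), and 2 and 8 of them were left out.

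Within fibrosis, the 125 marker-checked members were set out in 3 classes by their summed Col1a1, Col1a2 and Col3a1. The cuts fell at 132 and 358 per 10000, with 9 and 19 cells within 10% of them, so the collagen sum had no gap at the cuts. Whether these members are 1 population or a mix of cell types was not tested. Median depth was 9230 UMIs in the lowest, 14490 in the middle and 17001 in the highest class. HSC markers were lower in the classes with more collagen: Colec11 stood at 14.2 (13.1 to 15.4), 8.39 and 4.19 (3.73 to 4.68), Tmem56 at 13.9, 4.17 and 1.01, Angptl6 at 3.83, 1.02 and 0.272, and Rgs5 at 34.7, 25.7 and 8.27. The genes of the rule, whose sum has a floor, stood at 16.5, 16.5 and 13.2 for Lrat and at 21.2, 20.1 and 11.9 for Reln. Several genes absent or scarce in normal members were higher in the cells with more collagen. Dpt stood at 0.780 (0.533 to 1.10), 5.08 and 12.8 (11.98 to 13.6), Ltbp2 at 0.0487, 1.18 and 3.61, Lox at 0.317, 1.82 and 2.98, and Vegfd at 0.122, 1.01 and 2.39. Col8a1, which was as scarce in normal members, was even across the classes at 1.27, 1.29 and 1.36. Acta2 did not follow these steps, at 5.58, 5.38 and 13.1, nor did Igfbp3, at 21.1, 19.1 and 16.9. Deep cells weigh most in the Acta2 value of the highest class. Cells of 44260, 42684 and 22067 UMIs there held Acta2 at 28.9, 64.9 and 87.5, while others of that class held 0.

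Correlations over the 121 of these cells with 3000 or more UMIs, each thinned once to 3000, described the same pattern. They come from 1 library and carry no test. Col1a1 went with Col1a2 (Pearson r = 0.925, Spearman rho = 0.939) and with Dpt (0.571 and 0.710), and against Colec11 (-0.448 and -0.469) and Ecm1 (-0.416 and -0.445). Acta2 went with Tagln (0.747 and 0.577). Between Acta2 and Col1a1 the values were 0.113 and 0.152, and between Acta2 and Dpt -0.0361 and 0.0182, both weak.

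The members were set beside the cells that met every limit except the endothelial one. In normal, Angptl6, Colec11, Ecm1, Hgf and Tmem56 stood lower in those cells, with Colec11 at 15.7 (0.662 times the member level, 0.603 to 0.726) and Ecm1 at 37.8 (0.568 times). In fibrosis Hgf was at 0.661 times the member level (0.609 to 0.718), near the 0.672 times of normal. Colec11 was at 0.952 times (0.890 to 1.02) and Ecm1 at 0.892 times, Tmem56 was at 0.981 times and Angptl6 at 1.17 times (0.997 to 1.38) the member level, and Nes, the gene of nestin, was higher in those cells (1.48 times, 1.28 to 1.71). Their collagen levels in fibrosis were well below those of members, with Col1a1 at 20.2 (19.7 to 20.7) against 93.6 and Col3a1 at 32.2 against 103, and so were Dpt (1.20 against 7.24) and Acta2 (3.44 against 8.56). Kdr, an endothelial receptor gene that the limit did not use, stood at 12.1 in normal and 14.8 in fibrosis cells over the limit, against 2.24 and 0.895 in members (0.933 and 0.869 in marker-checked members). Genes at least 2 times higher in those cells than in members numbered 470 of 4546 in fibrosis, and 233 were at least 2 times lower. Those cells were also deeper than members (median 19624 against 11772 UMIs).

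Collagen-rich cells under the Lrat and Reln limit (39 normal and 52 fibrosis cells) were the other like class, and their collagen levels are part of how they were chosen. In normal, they differed from members in 593 genes that were at least 2 times higher and 774 lower, of 4551, and in fibrosis in 230 and 225, of 4290. Depth differed as well, with 321939 and 300525 UMIs in the normal and 1787897 and 950226 in the fibrosis classes, and its part in these counts was not tested. Genes that were absent or low in normal members stood higher in normal collagen-rich cells. Dpt stood at 35.5 there against 0.0621, Cd34 at 8.38 against 0 and elastin at 10.7 against 0.683. In fibrosis the same genes stood at 18.1, 1.59 and 8.56 in collagen-rich cells and at 7.24, 0.744 and 3.00 in members. Ltbp2 (12.1 against 1.91) and Acta2 (15.2 against 8.56) were higher in fibrosis collagen-rich cells, whereas Colec11 (0.610 against 7.94), Rgs5 (0.368 against 20.4) and Igfbp3 (1.99 against 18.5) were higher in members.

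**Figure D5:**
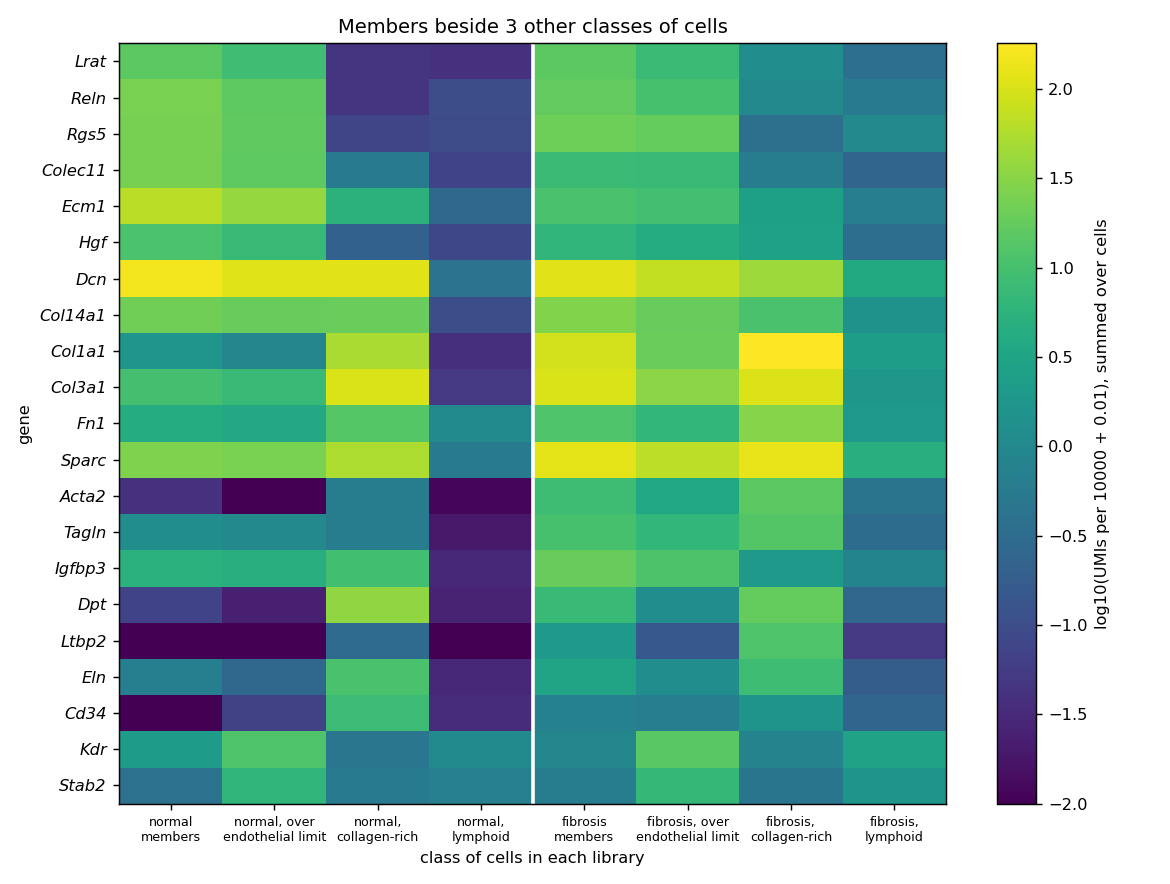
Summed level of 21 genes (rows) in members, cells over the endothelial limit, collagen-rich cells and lymphoid cells of each library (columns), as log10 of UMIs per 10000 plus 0.01. Summed over cells, fibrosis members showed HSC genes such as Rgs5 and Colec11 beside collagen and Acta2 levels that normal members lack. From cell to cell, Rgs5 and Colec11 were lower where collagen was higher.

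Markers of other cells were read in the members as a check. For endothelial genes 14 of 15 were over the limit, with a summed level of 33.3 in normal and 15.1 in fibrosis, and 16.2 and 14.8 in marker-checked members; lymphoid cells held 11.9 and 27.1. For macrophages and monocytes the summed level was 7.02 and 14.8, under the 43.2 and 62.7 of lymphoid cells, and 3 of the 15 genes (Trem2, Gpnmb and Timd4) were at 0 in normal members. Hepatocyte genes summed to 161 and 14.2, again under the lymphoid 338 and 36.7, and all 15 were at least 2 times lower in fibrosis. Lymphocyte genes summed to 94.5 and 4.12, but a single normal cell of 9447 UMIs held 2002 of the 2135 Igkc and 669 of the 701 Ighm UMIs. For portal fibroblasts and smooth muscle the summed level was 3.82 and 16.2 (lymphoid 3.70 and 4.70), 6 of 7 genes over the limit were higher, and Vit, Cnn1 and Pln were at 0 in both groups. Cycling genes summed to 4.82 and 7.75, cholangiocyte and mesothelial genes to 1.80 and 1.14, and neutrophil and erythroid genes to 2.89 and 3.55. In marker-checked members the last 2 turned, to 0.896 and 1.14 and to 2.91 and 1.68. Portal fibroblast and smooth muscle genes summed there to 2.02 and 16.2, with all 6 genes over the limit higher. The other sums there were 7.88 and 14.3 for macrophages and monocytes and 166 and 13.6 for hepatocytes. Lymphocyte genes summed to 112 and 3.98 and cycling genes to 4.70 and 7.59. The part of these other cells' markers in the differences above was not tested.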

How the data were processed

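Single-cell 3′ libraries (10x Chromium, version 3 kit) were made from liver NPCs of 1 normal and 1 fibrotic mouse. Per the labels, reads were processed with Cell Ranger 3.0.1 on mm10. The authors deposited UMI counts per gene and cell, not normalized. The methods state that doublets were tested for and excluded with Scrublet, without saying whether the deposited tables precede that step. Here Scrublet (scanpy 1.11.5, expected rate 0.06) called 1 cell in each library. No member was removed as a doublet.

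The study's filter (over 200 genes, under 10% of UMIs from mitochondrial genes) was applied, and 659 normal and 305 fibrosis cells were at or over the mitochondrial limit. The rule for members was then applied, and UMIs were summed over members. The members, gene groups and comparisons were chosen with earlier results of these data known. Intervals at 95% are exact (Poisson for levels, conditional for ratios, Clopper-Pearson for shares) and cover counting error only. A gene at 0 in a group was set to 3 counts over that group for a bound, which also enters the medians. Genes were called at 2-fold with a floor of 0.5 per 10000; no test was run, since cells are not replicates. Lymphoid cells had at least 10 per 10000 of B, T and NK cell genes, and collagen-rich cells at least 20 per 10000 of Col1a1, Col1a2 and Col3a1.

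Genes were named by rule: the genes of the member rule and the stellate markers, up to 4 of the largest and 4 of the smallest ratios in each of 22 gene groups, genes named in the study for these libraries, group members at 0 in 1 library, and the 12 largest and smallest ratios given in the text. Some genes that met this rule are not reported here. Other genes were named after their values were seen, as members of a family or to describe a spread. Gene positions are from GENCODE vM21 (GRCm38). Calculations used Python 3.11.15, numpy 2.4.6, scipy 1.17.1, pandas 2.3.3 and, for TMM factors, edgeR 4.0.16 in R 4.3.3. The removal of the lymphatic and shallow cells, and the shares expected over all thinning draws (hypergeometric), were added after the data had been seen. The calculation of ratios was tested on simulated data.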

Additional observations from a re-analysis of the deposited data

How the results depend on the processing

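No paired analysis was possible because each group holds 1 library, and leaving out a library would leave a group empty. The counts of genes at least 2 times higher (410) and lower (393) stayed within 1.5 times under other scalings (median of ratios, TMM, totals without mitochondrial and ribosomal-protein genes, a mean over cells), under subtraction of the lymphoid level (329 and 384, but of only 1393 genes left, so 23.6% and 27.6% against 9.19% and 8.81%), and without the lymphatic cells (440 and 380, an alternative chosen after seeing the data) and the shallow cells as well (437 and 379). The higher count moved to 689 at a mitochondrial limit of 5%, which left 12 normal members. With a floor of 2 the counts were 107 and 109, and with no floor 1379 and 1886. Without the 3 cells holding most UMIs of each gene they were 763 and 182, so that 80.7% of calls were higher, against 51.1%; this removes 3 of 38 normal but 3 of 138 fibrosis cells.

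The share of members was 0.335% in normal and 1.45% in fibrosis at an endothelial limit of 5, and in fibrosis it was 3.40% at the mitochondrial limit of 5%, 2.87% with Lrat and Reln at 4 or more and 1.70% at 16 or more. Fibrosis stayed above normal in each.

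Some ratios crossed 1. Ccl2 went to 1.31 with Lrat and Reln at 16 or more and to 1.48 without 3 cells, and Ighm to 1.02 without 3 cells. Hba-a1 went from 2.16 to 0.182 (Lrat and Reln at 16), 0.221 (endothelial limit 5), 0.194 (without 3 cells) and 0.185 (without lymphatic and shallow cells), and Hbb-bs to 3.00 as a mean over cells. Id1 went to 0 after subtraction of the lymphoid level. Without the lymphatic cells, and without the shallow cells too, Flt4 went to 1.44 and 1.36, Lama4 to 1.65 and 1.66, Lyve1 to 7.04 and 6.81, Tgfbr2 to 1.14 and 1.15 and Timp3 from 0.807 to 4.73 and 4.76 (1.36 with Lrat and Reln at 16, 1.81 without 3 cells). Hba-a2 went from 1.46 to between 0.177 and 0.225 under the 4 settings given for Hba-a1, and C4b from 1.43 to 0.878 with Lrat and Reln at 16. Hmgb2, Lamb2, Lrat and Smtn started near 1 and crossed it as well. Of the named ratios that could be computed, 25 of 143 moved by over 1.5 times with Lrat and Reln at 16 or more, 14 of 144 at an endothelial limit of 5, 39 of 131 without 3 cells, 23 of 143 without lymphatic and shallow cells, 24 of 146 as a mean over cells, 25 of 107 with the lymphoid level subtracted and 0 of 146 with median-of-ratios scaling. Among other genes given above, several moved this far and kept their side of 1. With Lrat and Reln at 16 or more, Alcam went to 7.64, Dpt to 69.9, Fhl2 to 13.7 and Lox to 51.98. At an endothelial limit of 5, Dpt went to 188, Fhl2 to 34.3, Lox to 54.8, Mmp23 to 13.02, Wnt5a to 14.1, Hhip to 0.0272 and Ntm to 0.0850. As a mean over cells Col8a1 went to 20.4, Wt1 to 11.9, Wnt5a to 5.05, Fam180a to 157 and Nrep to 59.6, and without 3 cells Fkbp10 to 11.9, Itgb5 to 5.34, Nr4a1 to 4.87, Osmr to 3.71, Snai2 to 5.001 and Tgfbr1 to 4.21. With the lymphoid level subtracted Alcam went to 36.7, Apold1 to 0.0624, Fcna to 0.0371, Itgb3 to 0.0963 and Jade2 to 0. The 38 normal members limit every ratio with few normal UMIs.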
